A study of Mus musculus with 3 samples.

Results

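The measurements below follow 57 genes of the cell cycle across the cells of the mouse meninges, the membranes around the brain, with most room given to the dividing precursors of neutrophils and B cells. The genes were chosen by symbol from a fixed list, and all 57 were found among the 27998 genes of the count table. Their unique molecular identifiers (UMIs, 1 per captured transcript) were summed gene by gene in 7057 barcodes with at least 500 UMIs and less than 8.3% mitochondrial UMIs, and with a number of genes within the limits of the study, which left out 1 barcode each from HC replicate 1 and CSD. The roles were kept apart: 21 members act before or during DNA replication, 32 act in mitosis, and 4 (Hmgb2, Stmn1, H2afz and Tubb5) are broadly expressed and also found in many resting cells.

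All mice were male C57BL/6J, 10 to 12 weeks of age, and each library was 1 pool of the meninges of 4 mice. Home cage controls (HC) gave 2 libraries from 8 mice that were not stressed. Chronic social defeat (CSD) gave 1 library from 4 mice that met an aggressive resident daily for 14 days and were chosen as stress-susceptible by behavioral tests. All 3 pools were sorted as live nucleated singlets (DAPI-, DRAQ5+) and captured on lanes 1, 2 and 3 of the same 10x chip. With 1 CSD pool, the effect of stress and the difference between pools cannot be told apart, and all p-values use the spread between the 2 HC libraries.

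A cell that commits to division first switches on genes bound by E2F factors, which load the MCM helicase onto replication origins and supply nucleotides for DNA synthesis. Genes of mitosis follow in G2, many of them through a DNA element called CHR that is bound by the MuvB complex with Mybl2 or Foxm1. In bone marrow, preneutrophils and pro-B cells divide, whereas mature neutrophils have left the cell cycle for good and most mature B cells rest.

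The start regions of members show these 2 groups at the DNA level, and 6 are printed to show where the E2F and CHR elements lie or are missing. The windows run from 250 bases before to 50 after the start (RefSeq, GRCm38.p6, 5′ to 3′ on the strand of the gene). Capitals mark the CHR element TTTGAA, the CCAAT box and E2F sites (TTTCGCGC, TTTGGCGC, TTTCCCGC or TTTGCCGC), each read on both strands, and touching elements run together. Mcm7 and Mcm3 code for helicase subunits and Cks2 and Cks1b for small partners of the cyclin-dependent kinases, and these 4 were set by the rule for named genes. Ube2c, a ubiquitin carrier of the anaphase-promoting complex, and Top2a, the topoisomerase that untangles sister chromatids, were added after their values were seen. They lie at chr5:138171834-138172133 on the minus strand (Mcm7, the first of its 2 windows), chr1:20820263-20820562 on the minus strand (Mcm3), chr13:51644982-51645281 on the plus strand (Cks2), chr3:89418242-89418541 on the minus strand (Cks1b), chr2:164769679-164769978 on the plus strand (Ube2c) and chr11:99024140-99024439 on the minus strand (Top2a).
Mcm7: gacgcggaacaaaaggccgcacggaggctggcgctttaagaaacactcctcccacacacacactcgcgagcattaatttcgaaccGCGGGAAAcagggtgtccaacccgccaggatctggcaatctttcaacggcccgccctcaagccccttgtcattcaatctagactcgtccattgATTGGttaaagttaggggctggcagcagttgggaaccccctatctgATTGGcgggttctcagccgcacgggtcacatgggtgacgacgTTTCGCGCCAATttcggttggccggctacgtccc
Mcm3: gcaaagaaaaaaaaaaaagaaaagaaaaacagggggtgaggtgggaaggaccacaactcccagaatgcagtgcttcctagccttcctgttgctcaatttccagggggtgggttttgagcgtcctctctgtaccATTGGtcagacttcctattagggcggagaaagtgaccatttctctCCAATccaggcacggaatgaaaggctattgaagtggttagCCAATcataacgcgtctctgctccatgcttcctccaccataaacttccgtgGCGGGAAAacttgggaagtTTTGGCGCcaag
Cks2: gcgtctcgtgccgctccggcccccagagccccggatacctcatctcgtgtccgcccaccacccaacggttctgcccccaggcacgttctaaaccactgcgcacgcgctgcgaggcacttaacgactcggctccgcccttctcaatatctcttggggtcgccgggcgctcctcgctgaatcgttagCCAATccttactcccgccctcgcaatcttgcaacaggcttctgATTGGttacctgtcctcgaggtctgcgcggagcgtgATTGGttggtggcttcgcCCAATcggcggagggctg
Cks1b: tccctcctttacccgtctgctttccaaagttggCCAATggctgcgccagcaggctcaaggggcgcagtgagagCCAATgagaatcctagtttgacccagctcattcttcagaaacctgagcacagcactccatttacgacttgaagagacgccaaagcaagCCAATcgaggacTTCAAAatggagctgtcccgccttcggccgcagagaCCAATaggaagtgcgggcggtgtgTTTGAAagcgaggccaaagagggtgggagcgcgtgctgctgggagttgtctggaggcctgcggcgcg
Ube2c: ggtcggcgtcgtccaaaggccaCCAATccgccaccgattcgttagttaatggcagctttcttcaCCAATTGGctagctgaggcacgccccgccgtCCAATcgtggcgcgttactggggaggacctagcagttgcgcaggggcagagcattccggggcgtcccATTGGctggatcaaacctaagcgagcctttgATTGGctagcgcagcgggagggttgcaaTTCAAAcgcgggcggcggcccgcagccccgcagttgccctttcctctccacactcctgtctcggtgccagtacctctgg
Top2a: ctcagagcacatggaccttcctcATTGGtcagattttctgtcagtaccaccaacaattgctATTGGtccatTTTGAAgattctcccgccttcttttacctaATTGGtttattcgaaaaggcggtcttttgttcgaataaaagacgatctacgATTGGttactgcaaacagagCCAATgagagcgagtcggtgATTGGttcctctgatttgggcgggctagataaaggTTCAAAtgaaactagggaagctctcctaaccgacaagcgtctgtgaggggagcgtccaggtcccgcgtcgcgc

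Mcm7 and Mcm3 each held 2 E2F sites and no CHR element in these windows. Ube2c held 1 CHR element and Top2a and Cks1b 2 each, while Cks2 held none, and all 4 held CCAAT boxes. A window was found for 48 of the 57 members. Among 29 windows of 28 mitotic members, 75.9% held a CHR element and 3.45% an E2F site. Among 20 windows of 18 replication members, 10% held a CHR element and 35% an E2F site. Over all 32851 windows of the table, 17.9% held a CHR element, 37.4% a CCAAT box and 2.26% an E2F site. A CCAAT box was present in 86.2% of the mitotic and 65% of the replication windows, and CHR and CCAAT occurred together in 72.4% of the mitotic windows against 6.95% of all windows. These are matches of letters and were not tested.

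The libraries held 9891861 (HC replicate 1), 8814690 (HC replicate 2) and 10206236 UMIs (CSD), of which the kept cells numbered 2599, 1702 and 2756 with medians of 2503, 2212 and 2400.5 UMIs. HC replicate 2 stood apart: 24.1% of its UMIs lay in droplets of at most 100 UMIs, against 7.87% in HC replicate 1 and 5.48% in the CSD library. Of the kept barcode sequences, 17 occurred in more than 1 library. Clustering without the 57 members gave 19 clusters in 18 classes, of which 15 had at least 20 cells in each library. Other genes linked to division stayed in the clustering (Hist1h1b, Racgap1, 2810417H13Rik, Hist1h2ap and Hmgn2 were among the leading genes of the dividing clusters), so the classes are not fully independent of the cycle.

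The preneutrophil-like class was led by Fcnb, Camp, Cebpe, Chil3, Ms4a3 and Ngp, which are granule and differentiation genes of early neutrophils, and held 78, 81 and 101 cells in HC replicate 1, HC replicate 2 and CSD. Its depth differed between libraries, with median UMIs of 10208, 778 and 10637, and 4, 54 and 5 of its cells had under 1000 UMIs. The pro-B-like class had Igll1 and Vpreb1, which build the surrogate light chain of the pre-B receptor, among its leading genes. Vpreb3 was also among them, a gene of the pre-B and immature B marker list that led that class too. The pro-B-like class held 50, 47 and 53 cells of even depth (medians 4252, 4560 and 4155 UMIs). A further cluster of 53, 43 and 80 cells was led by Prtn3, Ctsg and F13a1, genes of granulocyte and monocyte precursors. Its highest marker score was 1.13 on the monocyte list, but 2 of its leading genes were from the myeloid progenitor list, where it scored 0.922. The naming rule therefore did not single out 1 type, and it is called cluster 13. No cluster of this clustering was named myeloid progenitor-like. A finer clustering (resolution 2) gave that name to 87 cells, and without correction across libraries 264 cells had it, among them 168 of the 176 of cluster 13. With the cell cycle genes kept in the clustering, nearly all cells of cluster 13 were named monocyte-like instead.

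Other names are broad as well. The mast cell and basophil-like class of 125 cells divided at resolution 2 into 87 myeloid progenitor-like and 38 mast cell and basophil-like cells. The NK-like class of 693 cells, with the T cell genes Cd3g and Thy1 among its leading genes, divided into 464 T-like and 229 NK-like cells. The pre-B and immature B-like class scored 1.79 on its own marker list and 1.87 on the pro-B list. The pro-B-like class scored only 1.49 on the pro-B list, so these scores do not place the 2 classes in the order of their names. Of the 467 pre-B and immature B-like cells 300 kept the name at resolution 2, while 132 were mature B-like and 35 pro-B-like there. Of the preneutrophil-like cells 73, 29 and 95 kept their name, and 52 of the 63 that went to an unnamed cluster were from HC replicate 2.

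Summed over all 57 members and taken as a share of UMIs, the pro-B-like class was the richest in cell cycle transcripts. The members took 2.51% (HC replicate 1), 2.37% (HC replicate 2) and 2.43% (CSD) of its UMIs, or 2.44% ± 0.0702 (SD, n = 3 libraries). Cluster 13 followed with 1.59%, 1.85% and 1.68%. Preneutrophil-like cells reached 1.27%, 1.31% and 1.51%. These 3 classes did not overlap with each other in any library. The mast cell and basophil-like class came next at 0.901%, 1.03% and 1.03%, also clear of the classes on either side. Its 87 cells named myeloid progenitor-like at resolution 2 held 0.905%, 0.995% and 1.03%, and the other 38 held 0.872%, 1.21% and 1.04%.

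From the fifth place down the classes ran into each other: monocyte-like cells had a mean of 0.522% ± 0.136, immature neutrophil-like cells 0.375% ± 0.0288, mature neutrophil-like cells 0.284% ± 0.0158 and microglia-like cells, the lowest, 0.257% ± 0.0164 (SD, n = 3 libraries). Each of these lay within the range of its neighbor in the order, except that the olfactory neuron-like and mature neutrophil-like classes did not overlap. Erythroid-like cells, counted from only 10, 11 and 42 cells, held 0.834%, 0.878% and 0.855%. Droplets of at most 100 UMIs, which hold free RNA, gave 0.530%, 0.587% and 0.665%.

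**Figure D1:**
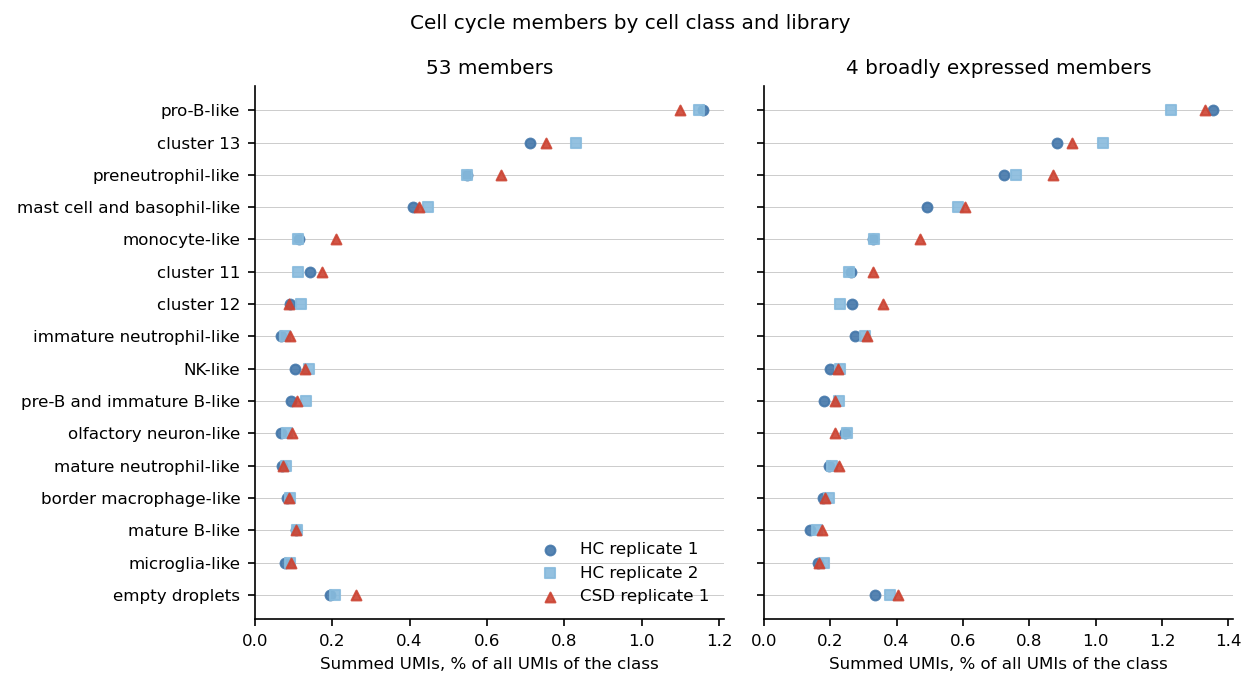
Summed UMIs of 53 members (left) and of the 4 broadly expressed members (right) as a percentage of all UMIs, for 15 cell classes and for empty droplets, with 1 point per library (blue circles, HC replicate 1; light blue squares, HC replicate 2; red triangles, CSD). Pro-B-like, cluster 13, preneutrophil-like and mast cell and basophil-like cells lie above the empty droplets in every library, and the other classes lie at or below them apart from monocyte-like CSD cells among the 4 broadly expressed members.

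The free RNA sets a background for the low classes. In pro-B-like cells and in cluster 13 all 57 members lay above the empty droplets of the same library in all 3 libraries. In preneutrophil-like cells 53 did, and the others were Gins2, Ung, Uhrf1 and Tubb5. In mature neutrophil-like cells 53 of 57 lay below the empty droplets in every library, as did 53 in immature neutrophil-like, 43 in mature B-like and 42 in pre-B and immature B-like cells. At such levels free RNA and transcripts of the cells themselves cannot be told apart.

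**Figure D2:**
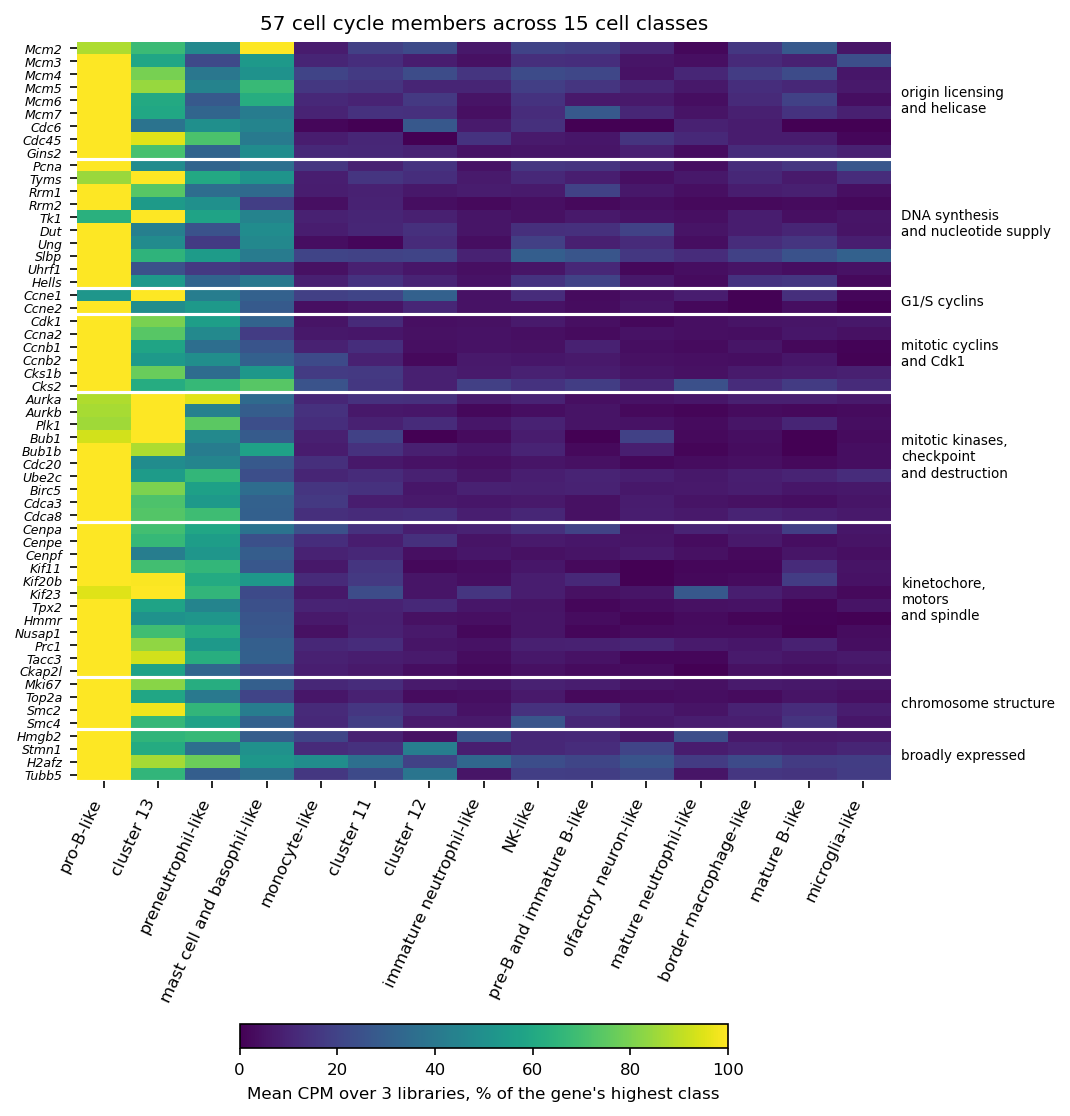
Level of each of the 57 members in 15 classes, as the mean CPM over 3 libraries in percent of that gene's highest class, with members grouped by role from top to bottom. The brightest column is pro-B-like for 48 members, cluster 13 for 8 and mast cell and basophil-like for 1, and the columns from monocyte-like rightwards are dark for nearly every row.

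By UMIs scaled to the same total in each class (CPM), 48 of the 57 members had their highest mean in pro-B-like cells, 8 in cluster 13 and 1 in mast cell and basophil-like cells. Of the 48, 31 were above the next class in every library, against 25.9% of the 968 genes that were highest in pro-B-like cells. Above in every library means, here and for all later counts, that the lowest library of one class lay above the highest library of the other. Both preneutrophil-like and pro-B-like cells lay above each of the 10 other named classes in every library for 28 of 57 members, against 0.749% of the 9473 genes with at least 100 UMIs. The ratio of the mean of these 2 precursor classes to the mean of the 10 others ranged from 3.14 for Mcm2 to 16.3 for Rrm2, with a median of 7.12. By role, the median ratio was 4.38 for origin licensing, 5.35 for DNA synthesis and 9.01 for the 2 G1/S cyclins. It was 8.96 for mitotic cyclins and Cdk1, 8.66 for mitotic kinases, 10.0 for the kinetochore and spindle and 7.54 for chromosome structure. The broadly expressed members had 4.15.

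The origin licensing group has 9 members: Mcm2 to Mcm7, the subunits of the replicative helicase, Cdc6, which loads it, and Cdc45 and Gins2, which activate it. Mcm7 stood at 151, 230 and 175 CPM in pro-B-like cells (HC replicate 1, HC replicate 2, CSD) and at 70.4, 53.8 and 56.9 CPM in preneutrophil-like cells. In immature neutrophil-like cells Mcm7 read 9.14, 6.31 and 6.98 CPM, and in pre-B and immature B-like cells 46.1, 65.7 and 42.9 CPM. Precursor and later class were apart in every library in both lineages. Mcm3 gave 127, 230 and 163 CPM in pro-B-like and 49.6, 32.3 and 32.4 CPM in preneutrophil-like cells, and again the 2 classes did not overlap. The mean levels of the 9 ran from 24.6 to 185 CPM in pro-B-like and from 12.3 to 60.4 CPM in preneutrophil-like cells.

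Among the ranked classes, Mcm2 was the only member whose highest mean lay outside the precursor classes and cluster 13. It read 35.0, 53.3 and 35.2 CPM in mast cell and basophil-like cells and 27.9, 50.7 and 29.7 CPM in pro-B-like cells, and these ranges overlap. The mast cell and basophil-like class also held Mpo and Ctsg, genes of myeloid precursors, among its leading genes.

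A group of 10 members supplies or carries out DNA synthesis. Dut, which keeps uracil out of DNA, was at 685, 589 and 657 CPM in pro-B-like cells and at 159, 147 and 177 CPM in preneutrophil-like cells. Slbp, which binds the stem-loop of histone mRNA, was at 374, 402 and 316 CPM and at 183, 219 and 198 CPM in the same classes. For both genes pro-B-like cells lay above preneutrophil-like cells in every library. Rrm2, the regulated subunit of ribonucleotide reductase, read 394, 390 and 286 CPM in pro-B-like and 170, 165 and 201 CPM in preneutrophil-like cells, against 7.99, 7.88 and 11.6 CPM in immature neutrophil-like cells.

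Tyms and Tk1, enzymes of thymidylate synthesis and salvage, were highest in cluster 13. Tk1 was at 121, 169 and 133 CPM there and at 51.8, 121 and 96.6 CPM in pro-B-like cells. Tyms was at 142, 250 and 191 CPM in cluster 13 and at 183, 144 and 167 CPM in pro-B-like cells. The ranges of Tyms overlap over the libraries. Those of Tk1 do not, by a narrow margin: the lowest value in cluster 13 was 120.944 CPM and the highest in pro-B-like cells 120.874 CPM. Ung, the uracil glycosylase, was sparse in preneutrophil-like cells (15.6, 10.8 and 1.96 CPM) and was the single member of the 57 whose preneutrophil-like level did not clear the later neutrophil classes in every library.

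The G1/S cyclins were the least abundant pair in counts. Ccne2 read 47.8, 35.1 and 26.0 CPM in pro-B-like and 27.4, 14.3 and 16.7 CPM in preneutrophil-like cells. Among the ranked classes Ccne1 was highest in cluster 13, at 29.8, 42.9 and 53.3 CPM, against 27.9, 19.5 and 18.6 CPM in pro-B-like cells. For Ccne1 cluster 13 lay above pro-B-like cells in every library, while for Ccne2 the pro-B-like and preneutrophil-like ranges overlap.

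Mitotic cyclins and Cdk1 form a group of 6 with Ccna2, Ccnb1, Ccnb2, Cks1b and Cks2. Cks2 was at 697, 702 and 761 CPM in pro-B-like cells and 462, 423 and 559 CPM in preneutrophil-like cells. It read 122, 147 and 144 CPM in immature and 178, 214 and 131 CPM in mature neutrophil-like cells. The highest mean of a member of this group in the empty droplets was 219 CPM. Cks1b was at 621, 433 and 609 CPM in pro-B-like and 179, 204 and 205 CPM in preneutrophil-like cells, with 37.7, 41.0 and 40.7 CPM in immature neutrophil-like cells. For both genes the 2 precursor classes and the later neutrophil classes formed separate ranges.

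The group of mitotic kinases, checkpoint and destruction has 10 members. Ube2c read 581, 511 and 576 CPM in pro-B-like and 353, 326 and 425 CPM in preneutrophil-like cells, and 26.3, 26.8 and 44.2 CPM in immature neutrophil-like cells. Birc5 (survivin), a subunit of the chromosomal passenger complex, read 617, 472 and 531 CPM, then 274, 283 and 367 CPM, then 43.4, 36.3 and 66.9 CPM in these 3 classes. The order pro-B-like, preneutrophil-like, immature neutrophil-like held in every library for both.

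The 4 kinases Aurkb, Plk1, Aurka and Bub1 had their highest mean in cluster 13. Aurkb, the kinase of the passenger complex, was at 109, 161 and 100 CPM in cluster 13 and at 87.6, 93.6 and 141 CPM in pro-B-like cells. Plk1, which acts from mitotic entry to exit, was at 61.3, 95.8 and 63.9 CPM in cluster 13 and at 71.7, 58.5 and 59.4 CPM in pro-B-like cells. Aurka, the centrosomal Aurora kinase, was at 54.7, 83.2 and 59.6 CPM in cluster 13 and at 56.1, 57.3 and 75.5 CPM in preneutrophil-like cells. Bub1, a spindle checkpoint kinase, was at 31.5, 27.7 and 23.4 CPM in cluster 13 and at 27.9, 19.5 and 29.7 CPM in pro-B-like cells. None of these 4 separated cluster 13 from the class beside it over the libraries.

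Among the 12 members of the kinetochore, motors and spindle, Cenpa, the centromeric histone, was at 410, 413 and 357 CPM in pro-B-like and 214, 247 and 237 CPM in preneutrophil-like cells. Cenpf, a kinetochore protein, was at 362, 347 and 279 CPM and at 151, 190 and 176 CPM in these classes. Both were higher in pro-B-like cells in every library. Kif23, a kinesin of the central spindle, was highest in cluster 13 (39.8, 73.1 and 62.8 CPM) and overlapped with pro-B-like cells (55.7, 74.1 and 37.1 CPM).

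The chromosome structure group holds Top2a, Mki67, which coats mitotic chromosomes, and the condensin subunits Smc2 and Smc4. Top2a (mm10 build, chr11:98992947-99024199) was at 653, 686 and 765 CPM in pro-B-like and 271, 297 and 283 CPM in preneutrophil-like cells. It was at 20.6, 31.5 and 26.8 CPM in immature neutrophil-like and 11.5, 29.2 and 12.9 CPM in pre-B and immature B-like cells. Mki67 (chr7:135689784-135716450) was at 311, 242 and 286 CPM in pro-B-like and 156, 158 and 207 CPM in preneutrophil-like cells. Its later neutrophil levels were 12.6, 15.8 and 23.3 CPM (immature) and 11.3, 10.5 and 17.0 CPM (mature). Smc4 read 613, 472 and 565 CPM in pro-B-like and 286, 308 and 347 CPM in preneutrophil-like cells. For all 3 the pro-B-like libraries lay above the preneutrophil-like ones.

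The broadly expressed members kept a high floor in later cells. Hmgb2, a chromatin protein of the HMG box family, was at 4603, 3821 and 3870 CPM in pro-B-like and 2585, 2584 and 3049 CPM in preneutrophil-like cells. It still read 1035, 1009 and 1199 CPM in immature and 920, 921 and 1100 CPM in mature neutrophil-like cells, but 234, 239 and 349 CPM in mature B-like cells. H2afz, a histone variant, was at 4838, 4472 and 4928 CPM, then 3405, 3595 and 4051 CPM in the 2 precursor classes and at 1474, 1661 and 1595 CPM in immature neutrophil-like cells.

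Along the neutrophil lineage, preneutrophil-like cells lay above both later neutrophil classes in every library for 56 of 57 members, where 15.6% of all genes with at least 100 UMIs did so. The ratio of preneutrophil-like to immature neutrophil-like mean CPM ranged from 2.34 for H2afz to 27.9 for Nusap1, a spindle protein, with a median of 8.02. By role its median was 5.20 for origin licensing, 6.13 for DNA synthesis and 9.69 for the 2 G1/S cyclins. It was 7.14 for mitotic cyclins and Cdk1, 11.0 for mitotic kinases, 12.2 for the kinetochore and spindle and 10.5 for chromosome structure. The broadly expressed members had 3.40. From immature to mature neutrophil-like cells the median ratio was only 1.28, and both classes lay below the empty droplets.

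In sums, the 21 replication members took 0.133%, 0.118% and 0.125% of preneutrophil-like UMIs (HC replicate 1, HC replicate 2, CSD). In immature neutrophil-like cells they took 0.0179%, 0.0218% and 0.0187%, and in mature ones 0.0197%, 0.0157% and 0.0185%. The 32 mitotic members took 0.416%, 0.430% and 0.511% of preneutrophil-like UMIs, then 0.0503%, 0.0555% and 0.0716% and then 0.0515%, 0.0650% and 0.0546% in the later classes. Both sums were lower in immature neutrophil-like cells in every library, and the immature and mature ranges overlap for both.

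Along the B cell classes, pro-B-like cells lay above pre-B and immature B-like and above mature B-like cells in every library for all 57 members, against 10.1% of all genes. The ratio to pre-B and immature B-like cells had a median of 12.7 and reached 57.4 for Nusap1, with Mcm7 lowest at 3.59. The 21 replication members summed to 0.305%, 0.350% and 0.294% of pro-B-like UMIs and to 0.0400%, 0.0562% and 0.0378% in the pre-B and immature B-like class. The 32 mitotic members summed to 0.854%, 0.797% and 0.805% and then to 0.0546%, 0.0756% and 0.0713%. In mature B-like cells the sums were 0.0423%, 0.0376% and 0.0369% for replication and 0.0635%, 0.0713% and 0.0708% for mitosis.

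**Figure D3:**
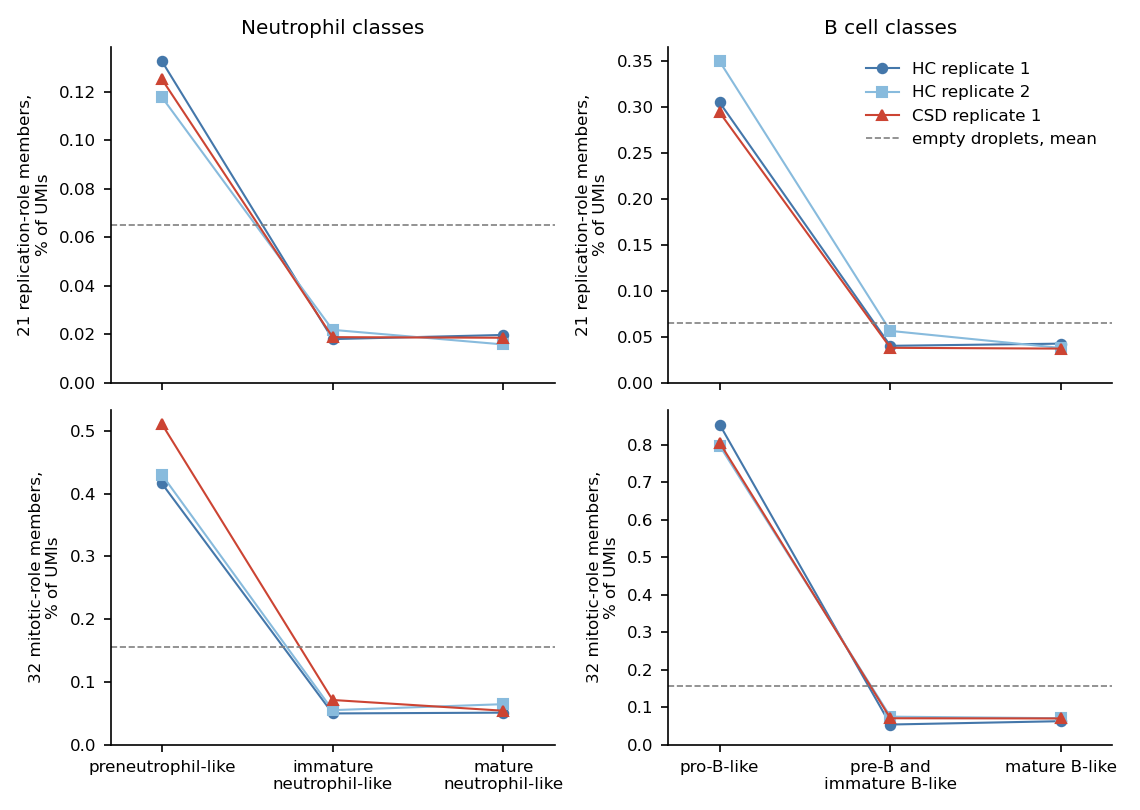
Summed UMIs of the 21 replication members (top) and the 32 mitotic members (bottom), in percent of all UMIs of the class, along the neutrophil classes (left) and the B cell classes (right), with 1 line per library and a dashed line at the mean of the empty droplets. In every library the precursor class lies above the dashed line and the later classes below it, and the CSD preneutrophil-like point for mitosis (0.511%) lies above both HC points (0.416% and 0.430%).

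Set side by side, pro-B-like cells lay above preneutrophil-like cells in every library for 48 of 57 members, where 35.1% of all genes did so, and preneutrophil-like cells lay above pro-B-like cells for 0 members against 10.3% of all genes. The members that did not separate were Cdc45, Tk1, Ccne1, Ccne2, Aurka, Plk1, Bub1, Kif23 and Smc2. The median ratio of the 2 classes was 1.91, and the largest was 5.96 for Uhrf1, a factor that maintains DNA methylation. Mitotic UMIs outnumbered replication UMIs by 3.13, 3.65 and 4.08 times in preneutrophil-like cells and by 2.80, 2.28 and 2.74 times in pro-B-like cells, so the ratio was higher in preneutrophil-like cells in every library. In cluster 13 it was 3.19, 2.75 and 2.68.

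Cluster 13 lay above preneutrophil-like cells in every library for 27 members (36.0% of all genes) and below pro-B-like cells for 32 (16.0% of all genes). Its share of replication members was 0.170%, 0.221% and 0.205%, and that of mitotic members was 0.542%, 0.609% and 0.548%.

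The share of cells with a UMI of Mki67 or Top2a was compared after each cell was thinned to 500 UMIs, since the classes differ in depth. In preneutrophil-like cells it was 15.4% (95% exact Clopper-Pearson interval 8.21 to 25.3), 16.0% (8.83 to 25.9) and 16.8% (10.1 to 25.6) in HC replicate 1, HC replicate 2 and CSD. Pro-B-like cells gave 34.0%, 36.2% and 35.8%, and cluster 13 gave 22.6%, 25.6% and 27.5%. Mature B-like cells, most of which should not divide, gave 2.26%, 4.32% and 2.48%, and the NK-like class, which also holds T cells, 3.09%, 3.03% and 2.60%. Immature (1.52%, 3.57% and 3.58%) and mature neutrophil-like cells (1.57%, 1.55% and 2.85%) reached at most 3.58%, below the highest value of the mature B-like cells. The precursor classes stood above that background in every library, and the later neutrophil classes did not. These intervals cover counting error only.

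At 2000 UMIs per cell, the shares were higher in every precursor class. Preneutrophil-like cells gave 47.9% of 73 cells, 47.8% of 23 cells and 66.0% of 94 cells, since 58 shallow cells of HC replicate 2 dropped out. Pro-B-like cells gave 70.5%, 67.6% and 73.5%, and cluster 13 gave 65.4%, 54.5% and 65.8%. The interval of CSD preneutrophil-like cells, 55.5 to 75.4, overlaps with those of HC replicate 1 (36.1 to 60.0) and of HC replicate 2 (26.8 to 69.4). At this depth, a UMI of both a replication and a mitotic member was found in 72.6%, 69.6% and 79.8% of preneutrophil-like, 90.9%, 94.6% and 89.8% of pro-B-like and 20.5%, 21.6% and 20.6% of mature neutrophil-like cells.

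**Figure D4:**
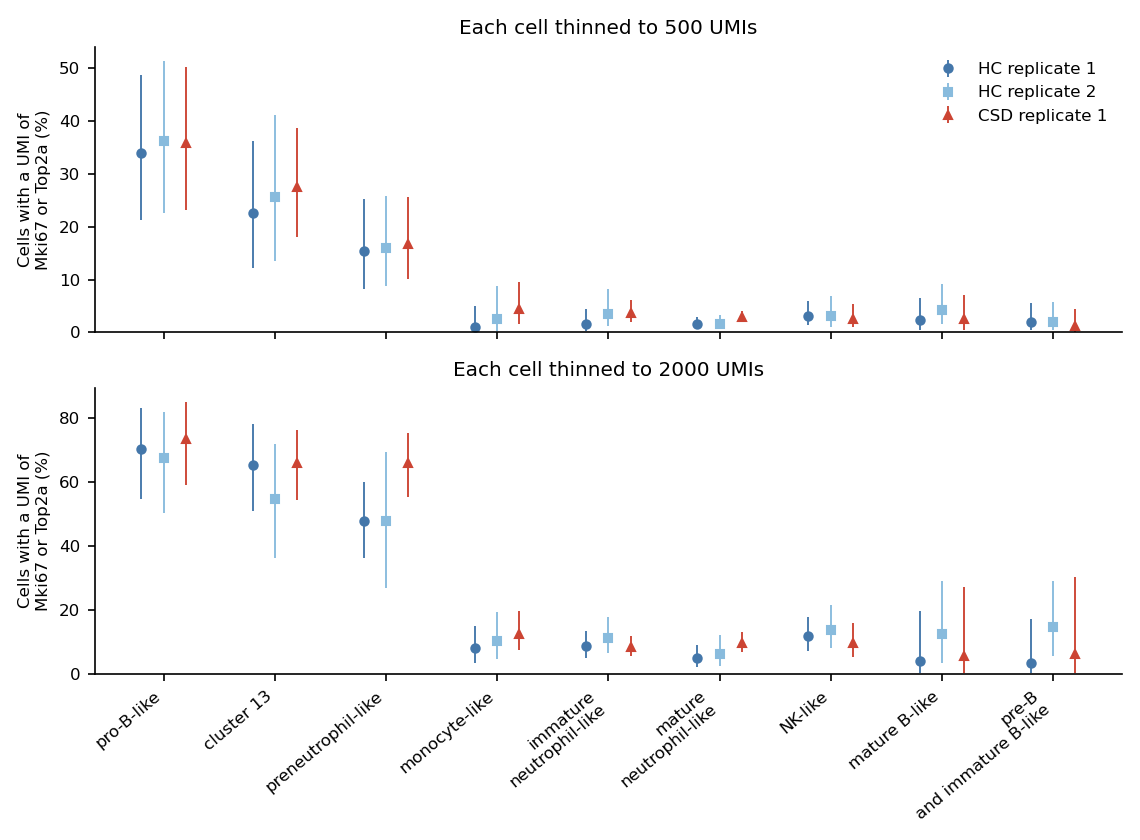
Percentage of cells with a UMI of Mki67 or Top2a in 9 classes, with each cell thinned to 500 UMIs (top) or 2000 UMIs (bottom), 1 point per library and exact 95% binomial intervals as bars. Pro-B-like, cluster 13 and preneutrophil-like cells stand above the other 6 classes in every library at both depths.

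The 30 other cell cycle genes with at least 100 UMIs, from a list of regulators that are not members, followed the members less uniformly. Of these 30, 13 lay higher in preneutrophil-like cells than in both later neutrophil classes in every library (15.6% of all genes) and 0 lay lower (5.94% of all genes). Against the later B cell classes, 17 lay higher in pro-B-like cells (10.1% of all genes) and 1 lower (5.66% of all genes). Mybl2, which works with MuvB, was at 23.9, 35.1 and 26.0 CPM in pro-B-like and 7.82, 3.58 and 10.8 CPM in preneutrophil-like cells. E2f8, an E2F repressor of late S phase, was at 20.9, 21.5 and 21.6 CPM in preneutrophil-like and 1.14, 3.15 and 1.75 CPM in immature neutrophil-like cells. Both were separated from the later class of their lineage in every library.

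Btg1, an antiproliferative gene, was the 1 gene of that list that lay lower in pro-B-like cells (323, 339 and 241 CPM) than in both later B cell classes, where pre-B and immature B-like cells read 1403, 1829 and 1314 CPM. In neutrophils Btg1 went from 150, 240 and 119 CPM (preneutrophil-like) through 234, 364 and 165 CPM (immature) to 716, 870 and 585 CPM (mature). The first 2 of these ranges overlap. Cdkn2d, the INK4 inhibitor of Cdk4 and Cdk6, read 245, 315 and 402 CPM in preneutrophil-like, 166, 222 and 238 CPM in immature and 197, 225 and 366 CPM in mature neutrophil-like cells. It was the highest in CSD in all 3 neutrophil classes.

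Genes outside both lists whose level tracked the summed members most closely were ranked over 45 points (15 classes in 3 libraries, which share their free RNA and depth). Among those with the highest Pearson r of log2(CPM + 10), of 9416 genes, were Spc24 (0.945), H2afx (0.943), Ncapg (0.940), 2810417H13Rik (0.937), Kif15 (0.929), Sgol1 (0.927), Gmnn (0.924), Hist1h1b (0.922) and Aspm (0.920). This is a description over points that are not independent.

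The second question was whether the members differ between CSD and HC. No member passed edgeR's quasi-likelihood test at a Benjamini-Hochberg adjusted p of 0.05 in any class tested or in all cells together, among genes with a UMI in more than 15% of the cells. Wider filters gave calls in all cells and in mature neutrophil-like cells. Most members that could be tested in preneutrophil-like cells had a positive value, with a median log2 fold change of 0.24 over 48 members. In pro-B-like cells the median over 54 members was -0.04.

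In preneutrophil-like cells 48 members had a UMI in more than 15% of the cells and were tested, and 0 of 48 were called by edgeR and 0 by DESeq2, against 0.896% of 3238 genes called by edgeR. Positive log2 fold changes were found for 37 and negative ones for 11, while 48.6% of all genes were positive. With cells of at least 1000 UMIs, 38 were positive and 17 negative, with a median of 0.18 over 55 members. Resolution 2 also gave 38 and 17 (median 0.18), and no correction across libraries gave 39 and 14 (median 0.17). In the other settings the median was 0.24 to 0.32. At an unadjusted p under 0.05 in edgeR there were 2 of the 48, against 180 of all 3238 genes. Cdca3, which promotes the destruction of Wee1, an inhibitor of mitotic entry, was at 153, 140 and 229 normalized CPM (HC replicate 1, HC replicate 2, CSD), a log2 fold change of 0.63 (SE 0.292, edgeR adjusted p 0.831). Gins2 was at 42.0, 25.8 and 20.1 normalized CPM, a log2 fold change of -0.88 (SE 0.425, edgeR adjusted p 0.867). CSD lay outside both HC libraries for both genes.

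By role, the signs in preneutrophil-like cells differed. All 6 tested licensing members were negative, with a median of -0.26, and all 6 mitotic cyclins and Cdk1 were positive, with a median of 0.26. Of the mitotic kinases 7 of 8 were positive (median 0.39), of the kinetochore and spindle 10 of 12 (median 0.25), of chromosome structure 4 of 4 (median 0.35) and of DNA synthesis 6 of 8 (median 0.07). Counted without a test among members with at least 20 UMIs in the class, CSD lay above both HC libraries for 26 of 56 members, against 25.0% of all such genes, and below both for 9, against 36.7% of all such genes. Among all 9 licensing members, 0 lay above and 6 below both HC libraries.

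The summed values show the size of these differences. The licensing members summed to 0.0333%, 0.0301% and 0.0247% of preneutrophil-like UMIs in HC replicate 1, HC replicate 2 and CSD. Mitotic kinases summed to 0.127%, 0.128% and 0.166%, mitotic cyclins and Cdk1 to 0.105%, 0.105% and 0.126%, and the kinetochore and spindle to 0.0964%, 0.109% and 0.115%. In each of the 4 roles CSD was outside the 2 HC values. Over all 57 members the CSD sum exceeded the HC mean by 0.217 percentage points, where the SD between the HC libraries was 0.0260. With cells of at least 1000 UMIs only, which removes most of the shallow barcodes of HC replicate 2, the sums were 1.28%, 1.35% and 1.51%, and the difference was 0.199. In the cells that kept the name at resolution 2 the sums were 1.28%, 1.35% and 1.51%.

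**Figure D5:**
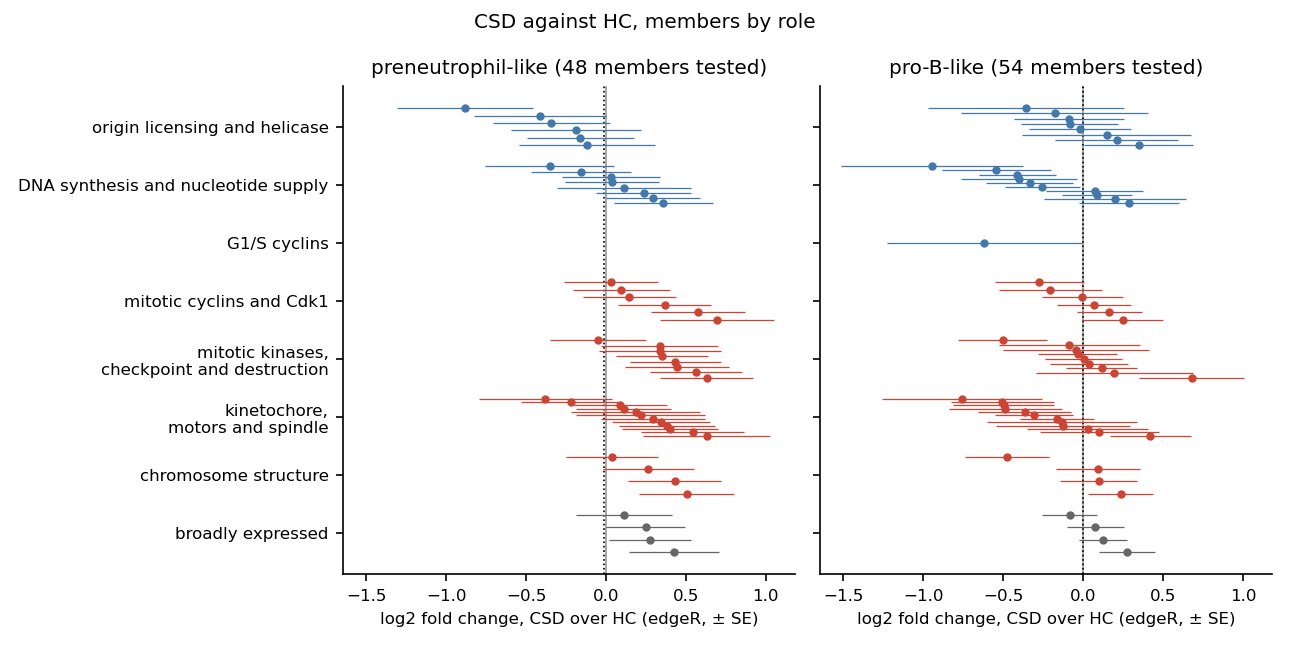
Log2 fold change of CSD over HC for each tested member (edgeR, points, with bars of 1 SE), grouped by role, in preneutrophil-like cells (left, 48 members) and pro-B-like cells (right, 54 members), where blue marks replication roles, red mitotic roles and gray the broadly expressed members, and the dotted line is the median of all genes tested. On the left 37 of 48 points lie right of 0 and all 6 licensing members lie left of it, while on the right 24 of 54 lie right of 0.

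Other transcripts differed between the libraries as well. The 9 erythroid marker genes, mostly globins, summed to 1883, 3566 and 5082 CPM in preneutrophil-like cells and to 1752, 2959 and 4472 CPM in pro-B-like cells, highest in CSD in both. In each class 6 of the 9 were highest in CSD, while Rhag was at 0 in both and Ermap in preneutrophil-like cells. The 7 mast cell and basophil markers summed to 227, 219 and 973 CPM in preneutrophil-like cells, and 6 of the 7 were highest in CSD. The 8 myeloid progenitor markers summed to 3169, 462 and 2295 CPM there, lowest in HC replicate 2, and 0 of the 8 were highest in CSD. The 53 members other than the broadly expressed ones made up 0.195%, 0.208% and 0.262% of UMIs in the empty droplets, also highest in CSD. Their part in the differences between CSD and HC was not tested.

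In pro-B-like cells 0 of 54 tested members were called by edgeR and 0 by DESeq2, against 0.0302% of 3308 genes called by edgeR. At an unadjusted p under 0.05 in edgeR there were 0 members, against 154 of the 3308 genes. There were 24 positive and 30 negative log2 fold changes. CSD lay above both HC libraries for 11 of 55 members with at least 20 UMIs (29.1% of all such genes) and below both for 21 (37.0% of all such genes). Mki67 read 343, 255 and 318 normalized CPM, a log2 fold change of 0.09 (SE 0.264, edgeR adjusted p 0.980), with CSD between the HC libraries.

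The difference of the CSD effect between the 2 precursor classes was tested directly, as an interaction with the library as a block. Again 0 of 54 members were called, against 0.0252% of 3968 genes, and 0 were called by DESeq2. In edgeR 5 of the 54 had an unadjusted p under 0.05, against 181 of the 3968 genes. Signs were negative (a lower CSD effect in pro-B-like than in preneutrophil-like cells) for 37 members and positive for 17, with a median of -0.27. Tpx2, a spindle assembly factor, was at 61.7, 55.3 and 86.8 normalized CPM in preneutrophil-like and 172, 169 and 120 normalized CPM in pro-B-like cells, a difference of log2 fold changes of -1.09 (SE 0.452, edgeR adjusted p 0.974). All 8 licensing members tested had a positive difference.

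The later classes held few testable members. In immature neutrophil-like cells 0 of 9 were called by edgeR and 0 by DESeq2 (0.0515% of 1940 genes called by edgeR), and 8 of 9 were positive. An unadjusted p under 0.05 in edgeR was found for 1 of the 9, against 158 of the 1940 genes. This was Birc5, at 48.5, 37.1 and 75.6 normalized CPM, a log2 fold change of 0.81 (SE 0.267, edgeR adjusted p 0.583). In mature neutrophil-like cells 0 of 4 were called by edgeR and 0 by DESeq2 (0.524% of 954 genes called by edgeR). An unadjusted p under 0.05 in edgeR was found for 1 of the 4, against 157 of the 954 genes. This was Cks2, at 213, 240 and 158 normalized CPM, a log2 fold change of -0.51 (SE 0.171, edgeR adjusted p 0.269). In pre-B and immature B-like cells 0 of 5 were called by either tool (0% of 1329 genes called by edgeR). At an unadjusted p under 0.05 in edgeR there were 0 of the 5, against 57 of the 1329 genes.

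Counted without a test among members with at least 20 UMIs, CSD lay above both HC libraries for 20 of 39 members in immature neutrophil-like cells (20.2% of all such genes) and below both for 3 (45.1%). In mature neutrophil-like cells the counts were 11 of 33 above (18.9%) and 8 below (51.7%), in cluster 13 they were 15 of 57 above (29.0%) and 14 below (31.4%), and in monocyte-like cells 24 of 35 above (31.1%) and 4 below (35.9%).

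With a filter of 20 UMIs in place of 15% of cells, 33 members were tested in mature neutrophil-like cells and 1 was called: Top2a was at 15.4, 22.5 and 36.8 CPM, a log2 fold change of 1.19 (edgeR adjusted p 0.0431), where 1.37% of 6213 genes were called higher in CSD. These levels lie below those of Top2a in the empty droplets (84.8, 79.4 and 91.2 CPM).

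Over all cells together, 0 of 12 tested members were called by edgeR, against 0.105% of 1902 genes, with 7 at an unadjusted p under 0.05, against 16.6% of all genes. DESeq2 called 5 (Ube2c, H2afz, Stmn1, Hmgb2 and Birc5), all higher in CSD, where it called 6.68% of all genes higher. The median log2 fold change of the 12 was 0.41, and 11 were positive. Ube2c was at 129, 120 and 201 normalized CPM, a log2 fold change of 0.69 (SE 0.134, edgeR adjusted p 0.164), and Birc5 was at 130, 132 and 202 normalized CPM, 0.62 (SE 0.129, edgeR adjusted p 0.170). CSD lay above both HC libraries for each. With the filter of 20 UMIs, edgeR called 6 of 57 members (Ube2c, Cdca8, Cdca3, Mki67, Ccnb2 and Birc5), all higher in CSD, against 1.07% of 13135 genes called higher, and 55 of 57 were positive. With no filter 21 of 57 were called, all higher, against 2.68% of 18235 genes.

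The total was also recomputed with levels and composition exchanged between the groups. The 53 members took 0.221%, 0.250% and 0.285% of all UMIs in HC replicate 1, HC replicate 2 and CSD. HC mean levels within classes gave 0.235% with the HC mean composition and 0.264% with the CSD composition, while CSD levels with the HC composition gave 0.252%. Preneutrophil-like cells supplied 21.2%, 11.7% and 23.8% of the member UMIs, cluster 13 supplied 21.6%, 25.1% and 25.9%, and pro-B-like cells 14.6%, 22.4% and 10.8%. In sums over cells, more dividing cells and more transcript per dividing cell cannot be told apart.

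Of the further cell cycle genes 0 were called by edgeR in the main setting, with the filter of 15% of cells. At that filter RLE scaling and a mitochondrial limit of 5% each called 1 of 5 in mature neutrophil-like cells (17 of 954 and 19 of 956 genes). With the filter of 20 UMIs edgeR called 1 of 36 in all cells (379 of 13135 genes). It called 1 of 18 in immature (103 of 6004 genes) and 1 of 20 in mature neutrophil-like cells (180 of 6213 genes). With no filter it called 3 of 37 in all cells (1211 of 18235 genes) and 1 of 36 in mature neutrophil-like cells (134 of 13679 genes). In all cells 9 passed the filter of 15%, 5 had an unadjusted p under 0.05 (16.6% of all genes) and DESeq2 called 5, 2 higher and 3 lower in CSD (10.5% of all genes in either direction). In preneutrophil-like cells 14 were tested, with 3 at an unadjusted p under 0.05 in edgeR (180 of all 3238 genes). In mature neutrophil-like cells 5 were tested, with 1 (157 of all 954 genes), and DESeq2 called 0 in both classes. Cdkn2d came nearest, in mature neutrophil-like cells, at 235, 251 and 440 normalized CPM, a log2 fold change of 0.86 (SE 0.145, edgeR adjusted p 0.105). The CSD value was above both HC libraries. In preneutrophil-like cells Btg2, a relative of Btg1, was at 132, 225 and 89.9 normalized CPM, a log2 fold change of -0.92 (SE 0.323, edgeR adjusted p 0.325), with CSD below both HC libraries.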

How the data were processed

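Droplet single-cell RNA sequencing (10x, 3' chemistry) was analysed in 3 libraries, 2 HC and 1 CSD. The authors deposited raw UMI counts per gene and barcode, made with Cell Ranger 2 against mm10 per the submitters' processing notes, with no cells called and no normalization; no annotation release is named in the sources used here. The barcode and gene tables deposited with the counts hold names only. Libraries were told apart by the number after each barcode, taken as the group number in the sample labels. The sources used here give no strand setting, so members that overlap other genes are uncertain to that extent.

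Barcodes with at least 500 UMIs, under 8.3% mitochondrial UMIs and a gene number within the study's limits were kept, with medians of 2212 to 2503 UMIs. Doublets were kept in the main values; Scrublet (scanpy 1.11.5) marked 50, 16 and 141 barcodes, the last as the top 5.1% of scores. Size factors came from scran 1.30.0. Clustering (leidenalg 0.10.2, resolution 1, after a mutual-nearest-neighbour correction) left out the 57 members and the listed further cell cycle genes. Clusters were named "X-like" from fixed marker lists; a cluster whose scores gave no clear list stayed unnamed, and that naming rule was set after the clusters were seen. A name was kept where another list scored higher by at most 0.1.

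UMIs were summed per class and library, since cells are not replicates. Values are shares of UMIs or CPM, with mean and SD over libraries. CSD was compared with HC by edgeR 4.0.16 (quasi-likelihood, TMM, two-sided, Benjamini-Hochberg over all genes tested, threshold 0.05), for genes with a UMI in more than 15% of the cells of the class. The lone CSD library is assumed to vary like the HC libraries. The edgeR step was tested on simulated data. DESeq2 1.42.0, RLE scaling, other filters, other clusterings and leaving out each HC library were alternatives. Named genes were, by rule, the 2 members of each role with the highest mean CPM over preneutrophil-like and pro-B-like cells, Mki67, Top2a, every member whose highest class was not a named precursor class, members called in a test, and the 10 genes most like the summed members, 1 of which is not reported here; genes at an unadjusted p under 0.05, extremes of a ratio and the further genes named were chosen after their values were seen. Promoters were printed for the first 2 named members of the replication and mitotic roles with a window. The members and gene lists were chosen with earlier results of these data known. Python 3.11.15, R 4.3.3 and scipy 1.17.1 were used.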

Additional observations from a re-analysis of the deposited data

Results flagged for a closer look

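In sums of 53 members over all cells of a class, the CSD library lay on opposite sides of the HC libraries in the 2 precursor classes. For the 53 members other than the broadly expressed ones, the CSD share of UMIs exceeded the HC mean by 0.0876 percentage points in preneutrophil-like cells, where CSD (0.636%) lay above both HC libraries (0.549% and 0.548%). In pro-B-like cells the difference was -0.0536 percentage points, with CSD (1.10%) below both HC libraries (1.16% and 1.15%). This depends on leaving out the broadly expressed members: the pro-B-like sums of all 57 were 2.51%, 2.37% and 2.43%, with CSD between the HC libraries. As a mean over cells, all 57 took 2.61%, 2.44% and 2.66% of pro-B-like UMIs, with CSD above both HC libraries. No mean over cells of the 53 members is given here. The difference between the 2 classes in these sums was not tested, and gene by gene the interaction in edgeR called 0 members.

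Droplets of at most 100 UMIs, which enter no comparison between groups, also carried the members. The 53 members took 0.262% of their UMIs in the CSD library, against 0.195% and 0.208% in the HC libraries. In mature neutrophil-like cells the same members took 0.0711%, 0.0807% and 0.0731%.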

How the results depend on the processing

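HC and CSD libraries could not be paired, since their pools came from different mice. Limits: 1 CSD pool, 1 residual degree of freedom, 23 preneutrophil-like cells of at least 2000 UMIs in HC replicate 2, and free RNA that exceeds the members' level in mature classes. The main count of called members was 0 in every comparison, and of 66 recomputed counts 62 were also 0. In all cells, DESeq2 called 5, the 20-UMI filter 6 and no filter 21; in mature neutrophil-like cells the 20-UMI filter called 1. Further genes called in all cells were 5 with DESeq2, 1 with 20 UMIs and 3 with no filter; in immature neutrophil-like cells 1 with 20 UMIs; and in mature neutrophil-like cells 1 each with RLE scaling, 20 UMIs, no filter and a mitochondrial limit of 5%. The cause was not tested, beyond the number of genes that each filter admits.

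The CSD minus HC difference of the summed members, in percentage points of UMIs, was 0.128 in all cells and became 0.0522 as a mean over cells and 0.0495 without the 4 broadly expressed members. In preneutrophil-like cells 0.217 became 0.317 and 0.0876. In mature neutrophil-like cells 0.0228 became -0.00286 without the 4, and in pro-B-like cells -0.0150 became 0.142 as a mean over cells. In preneutrophil-like cells the share of cells with Mki67 or Top2a (percentage points, CSD minus HC) differed by 1.11 at the main thinning depth. The difference became 18.1 at 2000 UMIs, with 23 cells in HC replicate 2, and 30.9 without thinning. Depth was not matched without thinning: medians were 10208, 778 and 10637 UMIs in HC replicate 1, HC replicate 2 and CSD. At 2000 UMIs and without thinning, the differences were 5.86 and 14.3 in cluster 13 and 4.46 and 7.61 in pro-B-like cells. They were -1.59 and 2.63 in immature and 4.20 and 4.71 in mature neutrophil-like cells. Differences at the main thinning depth are not given here for these other classes.

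Without HC replicate 1 or HC replicate 2 (1 library against 1, no test), the members' median log2 fold change was 0.24 to 0.25 in preneutrophil-like, 0.13 to 0.25 in immature neutrophil-like and -0.10 to -0.071 in pro-B-like cells and -0.29 to -0.23 for the interaction. Without correction across libraries no class was named pre-B and immature B-like, so it has no value there.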

Other observations

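Monocyte-like cells of the CSD library held more mitotic transcripts than those of either HC library. The 32 mitotic members took 0.0830%, 0.0742% and 0.176% of their UMIs in HC replicate 1, HC replicate 2 and CSD, and CSD lay above both HC libraries for 12 of 12 kinetochore and spindle members, 9 of 10 mitotic kinases and 6 of 6 mitotic cyclins and Cdk1. Among the 35 members with at least 20 UMIs in the class this held for 24, against 31.1% of all such genes. The excess sat in few cells: 3 of 108, 3 of 80 and 23 of 133 cells had 10 or more mitotic UMIs. Without the 3 richest cells of each library, an alternative chosen after seeing the data, the shares were 0.0570%, 0.0687% and 0.136%, and the CSD minus HC difference was 0.0731 percentage points.

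In pDC-like cells the mitotic members took 0.0425%, 0.0460% and 0.332% of UMIs, from 18, 14 and 27 cells. The 3 richest cells held 84.8% of the mitotic UMIs in CSD, and without them (also chosen after seeing the data) the shares were 0.0303%, 0.0291% and 0.0607%, a difference of 0.0310 percentage points.

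In preneutrophil-like cells the median mitotic share per cell was 0.340%, 0.261% and 0.524%, with 64 of 78, 20 of 81 and 93 of 101 cells holding 10 or more mitotic UMIs; the shallow barcodes of HC replicate 2 enter that count. The median was also highest in CSD in pro-B-like cells (0.690%, 0.579% and 0.894%) and lowest in CSD in cluster 13 (0.555%, 0.576% and 0.496%).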
